A study of Mus musculus with 11 samples.

Results

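The neurons described here are the 47 cells of the authors' cluster 3 that hold more than 30000 counts, set against the 335 cells of cluster 2. The high-count cells were chosen by their cluster number and their total count, both of which come from the same expression values, so every difference between the groups below is a description without a test. They make up 5.35% of the 878 cells in the table, and both groups together hold 382 cells, or 43.5%. The threshold falls in a wide gap. The deepest cluster 3 cell outside it had 18608 counts, and the shallowest inside had 52105. The cell just outside held Th at 9.67, Npy at 60.2 and Atf3 at 4.84 counts per 10000, and the cell just inside held Th at 13.4, Npy at 6.53 and Atf3 at 12.3 counts per 10000. The other 54 cells of cluster 3 had a median of 2683.5 counts and are used below only for comparison.

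All cells came from stellate ganglia, the sympathetic ganglia at the base of the neck, of 6 male C57BL/6J mice aged 6 to 8 weeks. Retrograde tracers had been injected into every mouse 3 days earlier: CTB-488 went into the forelimb and CTB-555 into iBAT, the brown fat between the shoulder blades. Each of 3 sets pooled the ganglia of 2 mice, no mouse went untraced, and cells were sorted into 11 plates that held 2050165 to 3373157 counts each. The set is the replicate, so n = 3 for each mean ± SD over sets, and cells of 1 set share their pool of mice. High-count cluster 3 gave 13, 19 and 15 cells in Sets 1, 2 and 3, and cluster 2 gave 137, 112 and 86 cells.

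Sympathetic neurons of the stellate ganglion make noradrenaline from tyrosine through tyrosine hydroxylase (Th), aromatic amino acid decarboxylase (Ddc) and dopamine beta-hydroxylase (Dbh). They load it into vesicles with Slc18a2, take it back up with Slc6a2 and break it down with the monoamine oxidases Maoa and Maob. Many of these neurons also release peptides, most familiarly neuropeptide Y (Npy). Agouti-related protein (Agrp), an antagonist of melanocortin receptors, is best known from hypothalamic hunger neurons, where it is made together with Npy.

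High-count cluster 3 cells held a median of 68061 counts per cell and ranged from 52105 to 107665, against a median of 40121 in cluster 2, which ranged from 3012 to 95167. Every cell was therefore thinned by 1 random draw to 15000 counts, which left out 12 cluster 2 cells and kept 323. After thinning the median cell showed 4444 detected genes in high-count cluster 3 and 4455 in cluster 2, and mitochondrial transcripts took a median of 2.13% and 1.97% of counts. High-count cells came from 10 of 11 plates, with none on plate 2. The 96 well barcodes recur on different plates, and no cell name was repeated. Levels below are mean counts per 10000 after thinning, and differences are log2(level + 0.1) of high-count cluster 3 minus cluster 2, taken within each set and averaged.

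**Figure D1:**
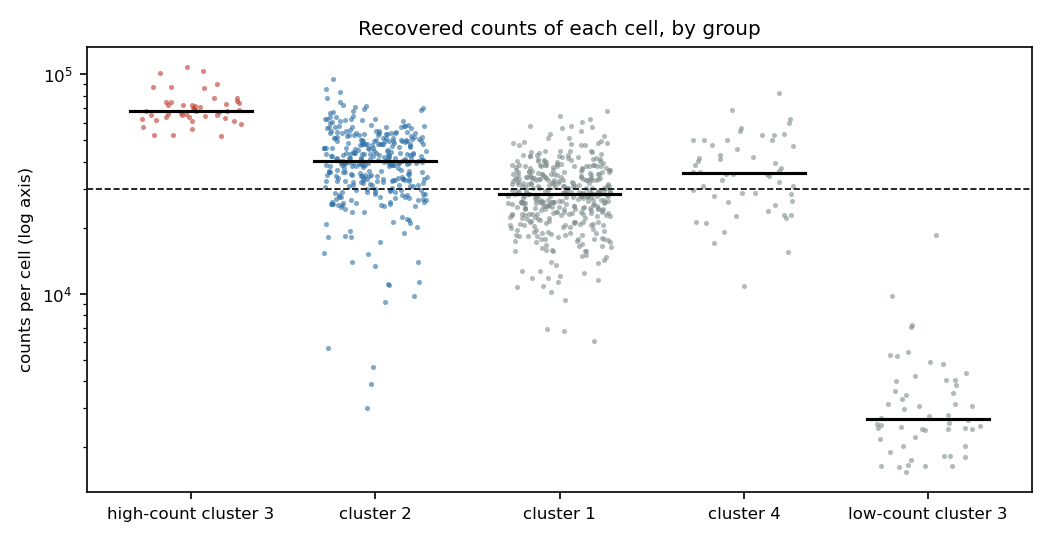
Counts recovered for each cell (log axis) in the 5 groups of cells, with each point 1 cell, the bar at the median and the dashed line at 30000 counts. High-count cluster 3 cells sit between 52105 and 107665, and no cell of cluster 3 lies between 18608 and 52105.

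Both groups carried the markers of noradrenergic neurons. Th, Dbh, Ddc and Slc6a2 had at least 1 count in 100% of the thinned cells of each group. The summed level of 12 sympathetic neuron markers was 127 to 155 over the sets in high-count cluster 3 and 153 to 185 in cluster 2. The 9 measured pan-neuronal markers summed to 130 to 133 in high-count cluster 3 and 132 to 138 in cluster 2. The 12 glial and Schwann cell markers summed to 11.1 to 17.0 in high-count cluster 3, with Cdh19, Foxd3, Egfl8 and Ncmap at 0, and to 12.0 to 15.8 in cluster 2. Within that list Apoe, a lipoprotein gene abundant in glia, averaged 2.57 ± 0.70 in high-count cluster 3 and 4.75 ± 0.91 in cluster 2 and was lower by at least 0.5 in each set, and the median of the 4 genes measured was -0.47. The part of glial RNA in the differences below was not tested, apart from leaving out the 10% of cells with the most glial counts, without which 16 genes were higher and 21 lower. Cholinergic neuron markers, which fill cluster 4 with a sum of 66.1 to 74.3, summed to 3.56 to 4.67 in high-count cluster 3, where Slc5a7, Chat and Sst were at 0, and to 2.40 to 4.15 in cluster 2. Chromaffin cell markers, which share Dbh with sympathetic neurons, summed to 25.5 to 26.3 in high-count cluster 3 and 30.8 to 36.8 in cluster 2. Summed levels of the lists for vessel walls (endothelial and mural cells), fibroblasts, blood cells (macrophages, lymphocytes and erythrocytes), brown fat and skeletal muscle did not exceed 2.00 in any set of high-count cluster 3. Sensory neuron markers reached 5.56 there, against at most 3.82 in cluster 2, and the sensory-associated peptide gene Calca is taken up below.

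Across 6150 genes with a mean level of at least 0.2, the groups were close. The Spearman correlation of levels over genes was 0.930 between high-count cluster 3 and cluster 2, 0.900 between high-count cluster 3 and cluster 1, and 0.893 between high-count cluster 3 and cluster 4. Genes are not independent replicates, and these values describe the libraries. The median log2 difference from cluster 2 was 0.00055. A gene is called higher or lower here when its log2 difference is at least 1 in the same direction in each of the 3 sets. By that rule 17 genes were higher in high-count cluster 3, 0.276% of those measured, and 18 were lower, 0.293%. These shares are the background for the counts of called genes in the lists below. The filter takes the mean of both groups, so a gene can pass it through 1 group alone. Atf3, Gng8, Fstl4 and Sdc1, described below, passed it only through high-count cluster 3. At least 0.5 in each set gave 79 genes higher (1.28%) and 88 lower (1.43%). Under the rule of at least 1, in either direction, 2.77% of genes differed between high-count cluster 3 and cluster 1, and 3.17% between high-count cluster 3 and cluster 4.

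**Figure D2:**
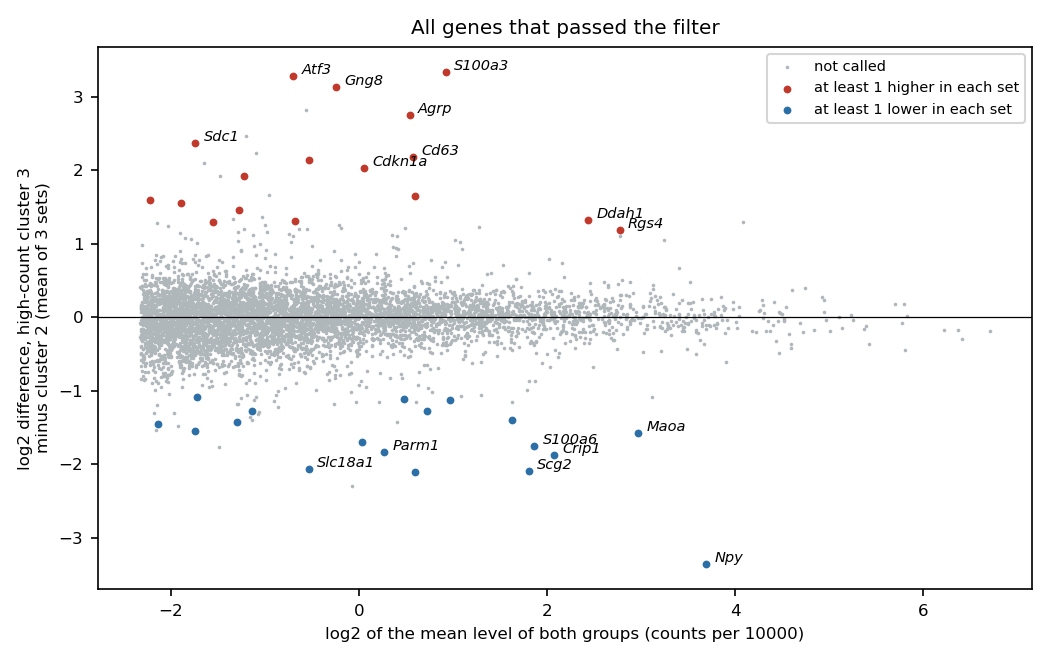
The log2 difference of each of the 6150 genes (high-count cluster 3 minus cluster 2, mean of 3 sets) against log2 of its mean level in both groups. Coloured points are the 17 genes higher and 18 genes lower by at least 1 in each set, with Npy lowest at -3.36 and S100a3 highest at 3.34.

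Agrp was higher in every set of these neurons. Its level was 2.92, 3.44 and 1.51 counts per 10000 in the 3 sets of high-count cluster 3, against 0.221, 0.390 and 0.255 in cluster 2. The sets of the groups did not overlap, and the log2 difference was 2.76 ± 0.53, or 6.76-fold on the scale with 0.1 added. Single cells did overlap, with 0 to 14 Agrp counts in high-count cells and 0 to 12 in cluster 2 cells. Agrp had at least 1 count in 38 of 47 high-count cells, or 80.9%, and in 74 of 323 cluster 2 cells, or 22.9%. The median cell of high-count cluster 3 held 4 Agrp counts of 15000 and the median cluster 2 cell held 0. Cluster 1 averaged 0.139 and cluster 4 averaged 0.0287.

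The low share in cluster 2 was read against shallower cells, since cDNA of a plate was pooled before amplification. At 1500 counts per cell, the depth at which the shallow cells of cluster 3 can be included, the expected share of cells with an Agrp count was 31.2% ± 10.4 in high-count cluster 3 and 3.66% ± 0.97 in cluster 2. The low-count cells of cluster 3, with less Th (18.4 against 47.6 counts per 10000, unthinned) and more Apoe (32.9 against 2.82) than the high-count cells, gave 5.06% ± 4.64 at that depth. The share was 2.09% ± 0.41 in cluster 1 and 0.543% ± 0.187 in cluster 4. In the mean over sets cluster 2 lay below the low-count cells, but in Set 3 it was above them, at 3.07% against 0%. It lay above clusters 1 and 4 in each set. In 2 cluster 2 cells the thinned Agrp count was at least 10, with a maximum of 12. How much of the cluster 2 share is stray reads was not tested. Cluster 2 cells of plate 2, which held no high-count cell, had an Agrp level of 0.152, and all plates ranged from 0.145 to 0.542. Only plate 1, which held 4 high-count cells, was lower than plate 2. Cluster 2 cells as deep as the shallowest high-count cell, 64 in all, averaged 0.433 ± 0.249 and held Agrp in 26.6% of cells. Sets 1, 2 and 3 gave 11, 44 and 9 of these 64 cells, so comparisons with them rest on few cells in Sets 1 and 3. The annotated Agrp gene in GENCODE M21 (GRCm38) spans chr8:105566698-105637393 on the minus strand and overlaps Ripor1 and Ctcf on the opposite strand. Whether reads were counted by strand is not stated in the sources at hand.

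Gng8, which encodes a gamma subunit of heterotrimeric G proteins, followed a similar pattern. It stood at 1.79, 1.72 and 1.29 in the sets of high-count cluster 3 and at 0.0637, 0.126 and 0.0905 in cluster 2, a log2 difference of 3.14 ± 0.35. It was counted in 72.3% of high-count cells and 12.4% of cluster 2 cells. Of the 47 high-count cells, 31 held both Agrp and Gng8, 7 held Agrp without Gng8, 3 held Gng8 without Agrp and 6 held neither.

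Of 24 genes listed for the melanocortin and AgRP pathway, 9 passed the filter, 2 were called higher and none lower, with a median log2 difference of 0.04 against 0.00055 over all genes. The other called gene was Sdc1, a cell-surface heparan sulfate proteoglycan, at 0.577 ± 0.309 in high-count cluster 3 and 0.0229 ± 0.0034 in cluster 2. Sdc1 was counted in only 10 of 47 high-count cells, and 4 cells held 77.5% of its counts there. Its call was lost without the Atf3-rich cells described below. Ltk, a receptor tyrosine kinase, averaged 0.729 and 0.249 and passed the rule of at least 0.5. Sdc3, a proteoglycan tied to AgRP action in mice, averaged 0.752 in high-count cluster 3 and 0.735 in cluster 2. Mrap2, an accessory protein of melanocortin receptors, averaged 0.210 and 0.265 in the same order.

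Npy moved the other way and was the gene with the lowest log2 difference of all. Its level was 4.10, 1.72 and 1.24 counts per 10000 in the 3 sets of high-count cluster 3, against 29.0, 13.3 and 28.3 in cluster 2. The sets of the groups did not overlap, and the log2 difference was -3.36 ± 0.90, or 10.3-fold lower on that scale. Single cells did overlap. High-count cells held 0 to 23 Npy counts with a median of 2, and cluster 2 cells held 0 to 364 with a median of 15. Cluster 1, the group richest in Npy, averaged 183, and cluster 4 averaged 3.38. Npy was also lower in the deeper cells of cluster 2, at 9.32 ± 4.37 over the 64 deepest, and against those alone the log2 difference was -1.98. At 1500 counts the expected share of cells with an Npy count was 26.4% ± 11.8 in high-count cluster 3 and 68.0% ± 16.0 in cluster 2. In the low-count cells of cluster 3 it was 88.7% ± 15.2. The expected share of those cells with a Th count was 86.0% ± 7.5, so they are not a blank for stray reads. How much of the Npy in high-count cells is stray reads was not tested.

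Promoter sequences of Npy and of Atf3, an injury-induced transcription factor described below, are shown because these genes mark the lower and the higher side of the comparison. They run from 250 bases before to 50 bases after the annotated start, 5′ to 3′, from RefSeq on GRCm38.p6. Capitals mark CGTCA, the core of the cAMP response element, on either strand. The Npy window is chr6:49822460-49822759 on the plus strand and the Atf3 window is chr1:191183284-191183583 on the minus strand.
Npy: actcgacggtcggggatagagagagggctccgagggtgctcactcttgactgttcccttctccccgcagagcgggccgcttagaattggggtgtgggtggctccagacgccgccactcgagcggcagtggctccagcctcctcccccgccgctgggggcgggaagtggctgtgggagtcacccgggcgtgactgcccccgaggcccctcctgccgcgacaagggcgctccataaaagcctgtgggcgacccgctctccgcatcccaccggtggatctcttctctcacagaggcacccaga
Atf3: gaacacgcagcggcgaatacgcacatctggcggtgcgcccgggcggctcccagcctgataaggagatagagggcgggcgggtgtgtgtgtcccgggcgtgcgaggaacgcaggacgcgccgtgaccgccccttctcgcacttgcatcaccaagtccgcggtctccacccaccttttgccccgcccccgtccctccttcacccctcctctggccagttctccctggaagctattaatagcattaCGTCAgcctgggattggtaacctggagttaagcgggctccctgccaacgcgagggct
CGTCA occurred at 1 place in the Atf3 window and was not found in these letters of the Npy window. It occurred in 20.8% of all 32851 promoters and in 8 of the 27 called genes with a promoter in the table. The TATA box TATAAA, the E-box CACGTG and the full element TGACGTCA, searched on both strands, were found in neither window. They occurred in 13.6%, 7.15% and 1.79% of all promoters, and each in 2 of the 27. The full element contains the core, so their counts overlap, and a match describes letters and not a bound site.

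Among 28 neuropeptide genes 7 passed the filter, of which Agrp was called higher and Npy and the vasodilator adrenomedullin (Adm) lower. Adm averaged 0.160 ± 0.059 in high-count cluster 3 and 0.449 ± 0.110 in cluster 2, and its difference of -1.08 was -0.12 against the 64 deepest cluster 2 cells. The 3 sets disagreed on galanin (Gal), a peptide that injured sympathetic neurons make in quantity. Gal stood at 11.5, 26.3 and 36.0 in high-count cluster 3 and at 11.7, 5.55 and 10.9 in cluster 2, so Set 1 showed no difference and Sets 2 and 3 had more in high-count cells. Gal was spread unevenly: 4 of the 47 high-count cells held 49.0% of its counts. Without the 4 Atf3-rich cells described below, its log2 difference was 0.79 in place of 1.30. Endothelin 3 (Edn3) was 3.38, 3.12 and 3.73 in high-count cluster 3 and 1.17, 1.97 and 1.17 in cluster 2. Edn3 was not called because Set 2 fell short of 1, and the difference of 1.23 was 0.51 against the 64 deepest cluster 2 cells.

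The machinery that packs and processes peptides was lower in part. Of 13 measured genes for granins and prohormone processing, 1 was called lower and none higher, with a median log2 difference of -0.32. That gene was Scg2, the granin secretogranin II, at 0.821, 1.37 and 1.73 in high-count cluster 3 and 4.96, 5.50 and 6.59 in cluster 2, a log2 difference of -2.09 ± 0.32. Pcsk2, a prohormone convertase, averaged 0.341 ± 0.399 and 1.57 ± 0.27, and Pam, the enzyme that amidates peptides, averaged 1.27 ± 0.39 and 2.11 ± 0.49. Both were lower by at least 0.5 in each set. Vgf, a neurotrophin-induced granin, was higher by that rule at 1.72 ± 0.37 and 0.846 ± 0.219. Chga, Chgb and Scg3 were not called, with log2 differences of -0.36, -0.16 and -0.29.

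The noradrenergic genes were measured in full, and all 15 passed the filter. None was called higher and 1 was called lower, with a median log2 difference of -0.22. The called gene was Maoa, at 4.00, 2.63 and 5.33 in high-count cluster 3 and 10.5, 11.1 and 13.4 in cluster 2, a log2 difference of -1.57 ± 0.40. Maob was lower by at least 0.5 in each set, at 1.34 ± 0.22 and 2.92 ± 0.49. Th averaged 47.7 ± 15.0 in high-count cluster 3 and 64.1 ± 17.0 in cluster 2, and its within-set difference of -0.44 ± 0.07 had the same sign in each set. Dbh averaged 20.7 ± 1.1 and 27.8 ± 3.0, and Slc18a2, the neuronal vesicular transporter, averaged 3.02 ± 0.48 and 4.68 ± 0.78. Slc6a2 differed by -0.11 ± 0.10 and Ddc by -0.20 ± 0.26. The second vesicular transporter, Slc18a1, which lies outside the rule for naming genes and was picked after its values were seen, was lower by 2.07 ± 0.86, at 0.219 and 1.16.

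**Figure D3:**
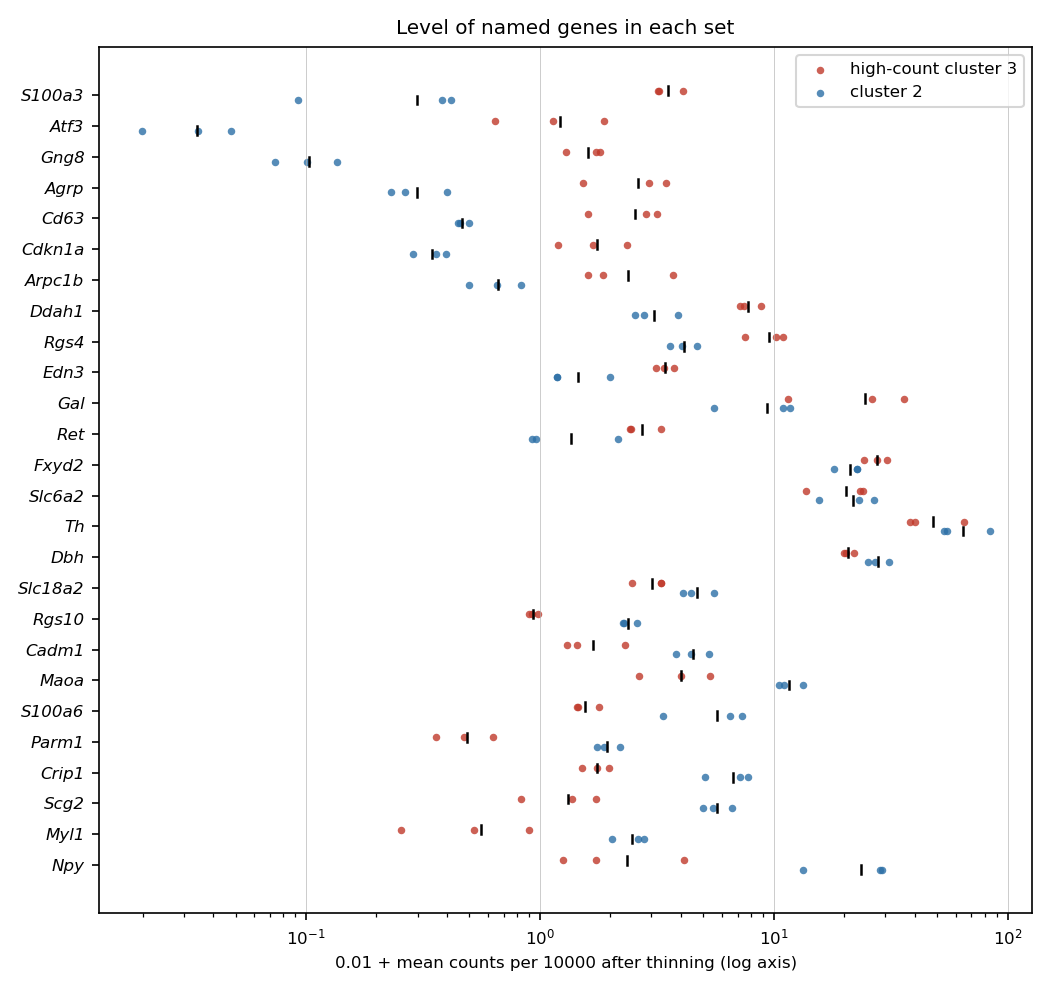
Level of 26 named genes in each of the 3 sets (points, log axis, counts per 10000 after thinning with 0.01 added), with the mean as a bar, for high-count cluster 3 (upper row of each gene) and cluster 2. Agrp, Gng8, Scg2, Maoa and Npy are among the genes that do not overlap between the groups, while Slc6a2 does.

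None of 6 measured GDNF family and neurotrophin receptors was called in each set. Ret, the signalling receptor of GDNF ligands, averaged 2.72 ± 0.50 in high-count cluster 3 and 1.34 ± 0.71 in cluster 2, and Ngfr, the low-affinity neurotrophin receptor, averaged 13.1 ± 5.8 and 8.03 ± 2.78. Both were higher by at least 0.5 in each set, and Ret by 1.25, 0.59 and 1.33 in Sets 1, 2 and 3. In the 64 deepest cluster 2 cells Ret averaged 1.65 ± 0.73, nearer to high-count cluster 3. Gfra2, a GDNF family co-receptor, averaged 0.638 ± 0.226 in high-count cluster 3 and 1.03 ± 0.12 in cluster 2.

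Genes that marked cluster 2 in earlier work on these data stayed present. Of 6 such genes 1 was called higher and none lower, and their summed level was 39.5 to 44.3 in high-count cluster 3, 26.3 to 33.3 in cluster 2, 9.23 to 11.0 in cluster 1 and 19.8 to 21.3 in cluster 4. That list was chosen on these same cells and gives no independent evidence. Fxyd2, a regulator of the sodium pump, averaged 27.5 ± 3.2 and 21.2 ± 2.6. Ddah1, which clears methylated arginines that inhibit nitric oxide synthase, averaged 7.77 ± 0.88 and 3.07 ± 0.72. Against the 64 deepest cluster 2 cells Ddah1 was higher by 0.96, under the threshold. The 9 genes that marked cluster 1 summed to 26.4 to 45.4 in high-count cluster 3, 28.7 to 52.1 in cluster 2 and 259 to 296 in cluster 1. These similar sums hide differences of single genes. Of the 9 genes 7 passed the filter, Npy was called lower and none higher, with a median log2 difference of -0.65. Npy, Epha5 and Maob were lower by at least 0.5 in each set. The 8 genes that marked cluster 4 summed to 1.33 to 2.31, 0.843 to 1.16 and, in cluster 4 itself, 87.2 to 105. Adra2a, an inhibitory adrenergic receptor, averaged 0.914 and 0.913, but its log2 difference of -0.03 ± 0.51 varied between sets. It was 0.26 without Set 1 and -0.20 without Set 3.

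The other genes called higher were of several kinds. Rgs4, which shortens G protein signals, averaged 9.57 ± 1.80 in high-count cluster 3 and 4.11 ± 0.56 in cluster 2, and it lost its call in 8 of the 21 alternatives, among them no thinning, another thinning draw and leaving out plate 2. Arpc1b, a subunit of the actin-branching Arp2/3 complex, averaged 2.38 ± 1.14 and 0.652 ± 0.169, and 3.50 in cluster 4. Cd63, a tetraspanin of late endosomes and secretory vesicles, averaged 2.53 ± 0.83 and 0.456 ± 0.026. A Cd63 pseudogene, Cd63-ps, was higher by 2.15, and reads cannot be assigned with certainty between the copies. Fstl4, a follistatin-like gene and the 1 called gene of 7 measured for TGF-beta, activin and BMP signalling, averaged 0.539 and 0.146. Picked after their values were seen were the thyrotropin receptor Tshr at 0.373 and 0.0557, the actin-binding Enc1 at 0.456 and 0.0853, the laminin-binding integrin Itga7 at 0.738 and 0.121, and the non-classical MHC gene H2-T23 at 0.946 and 0.306.

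Of 30 measured genes for G protein, RGS and cAMP signalling, 2 were called higher (Gng8 and Rgs4) and 1 lower, with a median of 0.06. The lower one was Rgs10, another regulator of G protein signals, at 0.925 ± 0.044 in high-count cluster 3 and 2.38 ± 0.19 in cluster 2. Calcium-binding genes counted 1 lower and none higher among 16, with a median of -0.27. S100a6 averaged 1.55 ± 0.20 and 5.73 ± 2.11, and 16.4 in cluster 1. It lost its call against the deepest cluster 2 cells and with thinning to 30000 counts. Hpcal1 and Hpcal4, neuronal calcium sensors, and S100a13 were lower by at least 0.5 in each set.

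The remaining genes called lower included Crip1, a small LIM-domain protein, at 1.74 ± 0.22 in high-count cluster 3, 6.67 ± 1.41 in cluster 2 and 25.0 in cluster 1. Against the deepest cluster 2 cells its difference of -1.87 became -0.74. Myl1, a myosin light chain best known from muscle, averaged 0.549 ± 0.323 and 2.47 ± 0.40, and Parm1 averaged 0.478 ± 0.136 and 1.93 ± 0.22. Among 19 measured genes of cadherins and synaptic adhesion 1 was called lower and none higher. The adhesion molecules Cadm1, at 1.68 ± 0.55 and 4.51 ± 0.74, and Lsamp, at 0.456 ± 0.236 and 1.60 ± 0.09, were called lower, and Lsamp was the 1 counted in the list. Ahi1, a ciliary protein, averaged 1.19 and 2.73 with a difference of -1.12, or -0.61 against the deepest cluster 2 cells, and Vstm2l averaged 0.843 and 1.94. Picked after their values were seen were Mgll, which hydrolyses the endocannabinoid 2-arachidonoylglycerol, at 0.178 and 0.635, Gpat2 at 0.104 and 0.495, Osbpl3 at 0.0786 and 0.378 and Cpne9 at 0.225 and 0.687.

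Several further lists held no called gene in either direction. These were axon guidance (12 measured), sodium pump and Fxyd regulators (8), cytokine, leptin and insulin family receptors (9), imprinted genes (8), cholinergic genes (2), Hox genes (2), potassium channels (17), sodium, calcium, HCN and TRP channels (20), synaptic vesicle and release machinery (29), neurofilaments and cytoskeleton (23), neurotransmitter and peptide receptors (15) and sympathetic transcription factors (17). The same held for nuclear-encoded OXPHOS subunits (63), mitochondrially encoded genes (10), cytosolic ribosomal protein genes (68), cholesterol synthesis (22) and immediate early genes (6). Their medians lay between -0.51 and 0.30. Within them Kcnn3, a calcium-activated potassium channel, averaged 0.433 in high-count cluster 3 and 0.173 in cluster 2, and Mvk, mevalonate kinase, averaged 2.85 and 1.36. Hand1, a basic helix-loop-helix factor, averaged 1.14 and 1.97, and Sox11, a transcription factor of growing neurons, averaged 0.383 and 0.152. Rgmb, a co-receptor for BMPs, averaged 0.400 and 0.188, and Epha5, an ephrin receptor, averaged 1.24 and 1.99. Scn3a, a sodium channel, averaged 0.473 and 0.877, and the imprinted Mest averaged 0.143 and 0.350. Each of these passed the rule of at least 0.5 in each set.

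A few cells carried the largest differences among genes of axon injury and growth. Of 13 measured genes in that list, 2 were called higher and 1 lower, with a median of 0.86. Over all genes the shares called were 0.276% and 0.293%. The genes called higher were Atf3 and Gadd45a, and the lower one was Crip1. Atf3, switched on in axotomised neurons, stood at 1.13, 0.632 and 1.87 in the sets of high-count cluster 3 and at 0.00980, 0.0377 and 0.0247 in cluster 2. Only 7 of 47 high-count cells held an Atf3 count, and 4 of them, from plates 1, 5, 9 and 10, held 95.1% of all Atf3 counts of the group. These 4 cells had 22, 15, 18 and 23 Atf3 counts of 15000, and no cluster 2 cell had more than 3. They also held 0 to 13 counts of Gadd45a, a DNA damage response gene, 20 to 23 of Cdkn1a, the p21 cell cycle inhibitor, 13 to 24 of Cd63 and 19 to 400 of Gal, and 3 of the 4 held 11 to 19 of Calca. Sprr1a, another injury-induced gene, was at 50 and 31 counts in a pair of them and at 0 in the others. They held 18, 18, 41 and 31 counts of Th and 0 or 1 of Agrp. Both cells closest to the threshold from inside were among them, at 52105 and 52772 counts. A pair of cluster 4 cells from Set 2 also had 15 and 23 Atf3 counts.

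Leaving out the Atf3-rich cells, a choice made after the data were seen, removed the calls of Atf3, Cdkn1a, Gadd45a, Sdc1, Itga7, H2-T23 and Rgs4 among the higher genes and left 10. Adm, Ahi1, Lsamp and Vstm2l among the lower genes also fell short in a set, but their mean differences stayed at -0.99, -1.04, -1.58 and -1.04, against -1.08, -1.12, -1.70 and -1.11 with those cells. The log2 difference of Atf3 was then 0.25 in place of 3.29, and that of Cdkn1a 0.38 in place of 2.03. Agrp stood at 2.87, Gng8 at 3.21 and Cd63 at 1.46 without those cells. Hspb1, a small heat shock protein of the same list, averaged 9.37 ± 0.26 in all high-count cells and 4.33 ± 0.56 in cluster 2, and its difference was 0.93 without them and 1.10 with them.

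S100a3 had the highest difference of all, 3.34 ± 1.02, and rested on other cells. It stood at 3.23, 3.19 and 4.09 in high-count cluster 3 and 0.373, 0.409 and 0.0823 in cluster 2. Of its counts in high-count cluster 3, 99.2% lay in 4 cells, with 62, 91, 80 and 11 counts, and a pair of cluster 2 cells held 71 and 60. None of these 6 cells was rich in Atf3. Without them the log2 difference was -0.12. S100a3 overlaps S100a2 on the same strand, and reads of the overlap cannot be assigned to either with certainty.

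**Figure D4:**
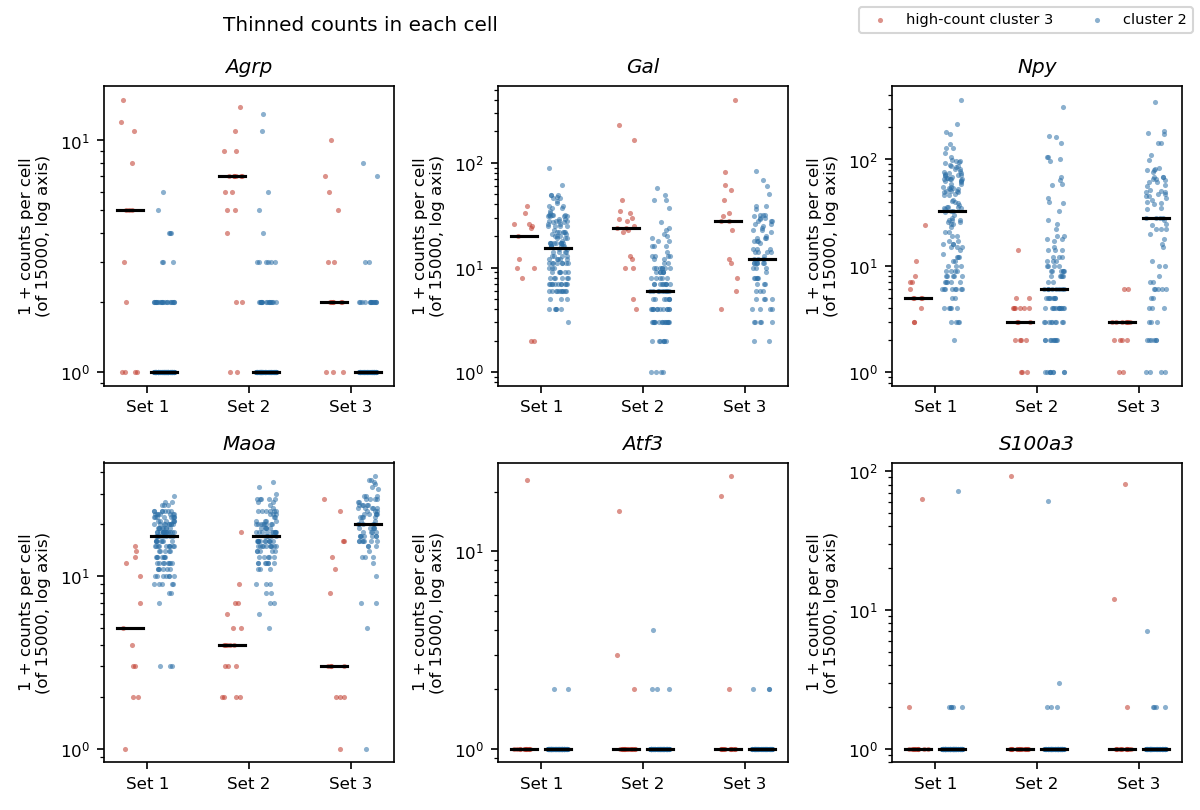
Thinned counts plus 1 (log axis) of 6 genes in each cell of high-count cluster 3 (left of each pair) and cluster 2 in Sets 1, 2 and 3, with bars at the median. Agrp and Maoa shift in most cells, Atf3 and S100a3 lie at 0 apart from a few cells, and the cluster 2 cells spread widely in Npy.

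Among themselves the 47 cells were also not uniform in Maoa. Of them 11 held at least 10 Maoa counts of 15000, as did 291 of 323 cluster 2 cells, and 36 held fewer. Agrp was counted in 5 of those 11 cells and in 33 of the 36. The median cell of the 11 held 101 counts of Th, 9 of Gal and 0 of Gng8, and the median of the 36 held 60, 26 and 2.5. The 11 cells came from all sets (4, 1 and 6), while the level of 10 counts was set after the data were seen. Over the 47 cells the Spearman correlation of Gal and Maoa was -0.67, with -0.81, -0.41 and -0.74 within the sets and -0.02 in cluster 2. That of Agrp and Maoa was -0.45 (cluster 2: -0.18), that of Gal and Cd63 was 0.63 (cluster 2: 0.11), and that of Agrp and Gal was 0.30 (cluster 2: 0.05). Cells of a plate share a library, and these correlations carry no test.

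The sort record offers the measure that did not enter the choice of cells. It lists 1039 wells by gate, with A555 and A488 named for the tracers' dyes, but ties no cell to a well, so the question of tracer and cell type could be put only to plates. High-count cells were 0% to 26.3% of both groups on a plate, and A555 wells were 51.8% to 78.3% of the wells in the A555 and A488 gates. Within sets the Pearson correlation of these shares over the 11 plates was 0.31 (two-sided exact permutation test within sets, p = 0.448). This was the 1 relation tested, so no adjustment applies. Pooled over sets Pearson's r was -0.05 (permutation p = 0.878) and Spearman's rho 0.04 (permutation p = 0.919), and r was 0.08 without the 2 plates farthest from the median. The sign differed between sets, with -0.79 over the plates of Set 1, 0.67 in Set 2 and 0.77 in Set 3, and each value rests on 3 or 4 plates. No relation was detectable at this number of plates.

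**Figure D5:**
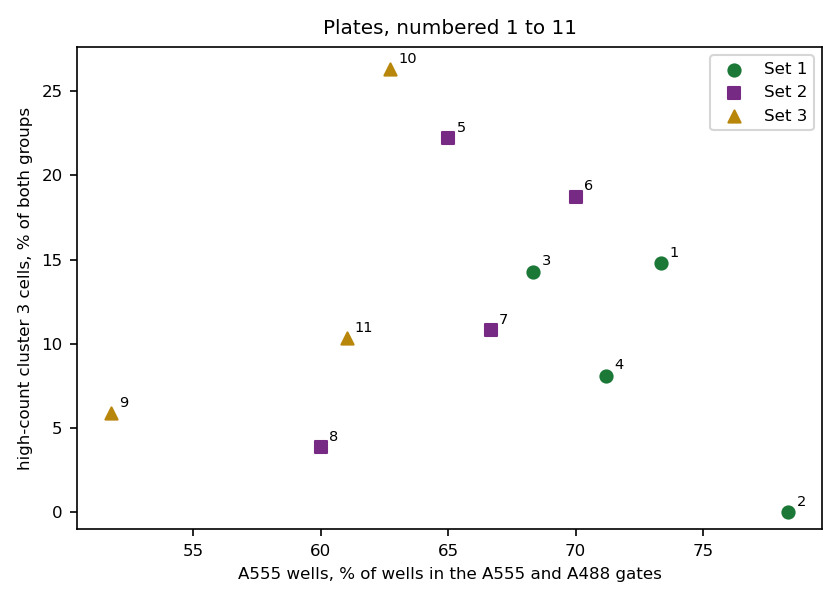
Share of high-count cluster 3 cells among cells of both groups against the share of A555 wells among the wells in the A555 and A488 gates, with 1 point for each of the 11 plates. The plates of Set 1 run downward and those of Sets 2 and 3 upward, and plate 2 holds no high-count cell.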

How the data were processed

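The submitters' processing notes name STAR 2.5.3a, SAMtools 1.4.1, featureCounts 1.5.3, Seurat without a version, and the genome build GRCm38. Judged from the deposited values, the authors scaled each cell to 10000 counts, added 1 and took the natural log (ln). After exp(value) - 1, dividing by the smallest non-zero result of a cell gave counts, and 100% of non-zero values came out whole within 0.001. The deposited cluster numbers and gate names have no unit. Molecular identifiers are not mentioned in the sources used here, so counts may include PCR copies. The mean over the cells of a set is the replicate value. An SD therefore covers the spread between pools of mice together with that from the sampling of cells and counts.

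Cells were thinned once to 15000 counts with a fixed seed of 11. Genes with a mean under 0.2 counts per 10000 over both groups were left out, and 0.1 was added before log2. Because the clusters were made from these genes, no p-value is given for them. The members and gene lists were chosen with earlier results of these data known. Genes are named if they are among 33 fixed genes, the 12 higher and 12 lower called genes of mean at least 1 with the largest smallest difference over the sets, up to 4 called genes of each list, or fill a role in a pathway. Symbols matched GENCODE M21 positions for 18737 of 19444 genes. The threshold left 47 cells, and no doublet caller was run. The sets are the block of the comparison because their ganglia were pooled from the same mice, per the labels. Alternatives were deeper or no thinning, other scaling, pseudocounts, filters and thresholds, no block, and leaving out sets, plates or cells. Python 3.11.15, matplotlib 3.10.9, scipy 1.17.1, pandas 2.3.3 and numpy 2.4.6 were used. The code was tested on cluster 2 cells split at random within sets, with counts of some highly expressed genes lowered by known factors. That test did not cover genes of low level or the gap in depth between the groups. Values of 2 genes are not reported here.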

Additional observations from a re-analysis of the deposited data

How the results depend on the processing

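Of 35 called genes, Npy, Scg2 and Maoa kept their call under each of the 21 alternatives, and Agrp and Gng8 under 20, losing it when log2 with 1 added was averaged over cells, at 1.26 and 1.01. The 17 genes higher in high-count cluster 3 became 11 with median-of-ratios size factors, 1 with log2 averaged over cells, 3 with a pseudocount of 1, 7 with a filter at 1 count per 10000, 79 with the rule of 0.5 in each set and 10 without the Atf3-rich cells. The 18 lower genes became 4 with log2 averaged over cells, 4 with a pseudocount of 1, 88 with the rule of 0.5 and 11 against cluster 2 cells as deep as the high-count cells. Against those deep cells Adm, Ahi1, Cadm1, Cpne9, Crip1, Gpat2, Osbpl3, S100a6 and Vstm2l lost their lower call. Ddah1, Enc1, Fstl4, Gadd45a, H2-T23 and Rgs4 lost their higher call there. Gadd45a, H2-T23 and Vstm2l kept their call under 12 of the 21 alternatives, the fewest of the called genes. With no replicate block, which asks for a mean difference of 1 and no overlap between the sets of the groups, 44 were higher and 44 lower. Leaving out 1 set gave 27 to 37 higher and 28 to 30 lower. That rule asks for fewer sets, so more genes pass. The filter and size factors test fewer genes, the rule of 0.5 is looser, and a larger pseudocount makes log2 differences smaller. For the others the cause was not tested.

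A second random draw of the thinning shared 12 of the 17 higher and 12 of the 18 lower calls, so single calls near the threshold depend on the draw. Thresholds of 20000 and 40000 chose the same cells. S100a3 reversed to -0.12 without the 6 cells rich in it, of which 4 held 99.2% of its counts in high-count cluster 3. The pooled correlation over plates, with no replicate block, reversed to -0.0516, and the cause of that was not tested. Leaving out 1 set moved the within-set correlation to between 0.0026 and 0.73. With 13 to 19 high-count cells a set, genes below about 0.2 counts per 10000 rest on few counts.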
